A study of Mus musculus with 28 samples.

Results

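Contacts of a chromosome that lacks a domain boundary were read from both sides of the missing stretch, from an enhancer on one side and a promoter on the other. The members were the 2 libraries of cells called del36 among the 28 samples of the series, of which 13 have a file here. One library took its viewpoint at PE Six3, a poised enhancer of Six3, and the other at the Six2 promoter. Both came from mouse embryonic stem cells of line E14Tg2a, labelled as kept in 2i+LIF, although the culture protocol in the labels names serum and LIF. Both carry del36, labelled as removal of the boundary between Six3 and Six2, and no other allele is named. Libraries of wild type (WT) cells of the same line from the same 2 viewpoints are given beside them as values. The labels give no clone, number of clones or replicate culture. With 1 library per viewpoint and genotype no test was possible, and every interval printed covers counting error only, since PCR reads without molecular identifiers are not independent molecules.

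The assay, 4C-seq (circular chromosome conformation capture), joins fragments that lie close together in the nucleus and counts every fragment ligated to a chosen one, the viewpoint. A topologically associating domain is a stretch of chromosome whose parts touch each other more than they touch the neighbouring stretches, and the boundary between such domains limits contact of an enhancer with genes across it. Poised enhancers switch on developmental genes later in the embryo, are silent in embryonic stem cells, and often already touch the promoters they will later activate. Six3 encodes a homeobox protein needed for the forebrain and eye, and Six2 a homeobox protein that maintains the progenitors of the kidney's nephrons. Reading 1 pair of sites from either end asks whether both give the same contact, though each share also depends on every other contact of its viewpoint.

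The region measured was chr17:84700000-86480000 (mm10), 1.78 Mb. The longest stretch without reads between the viewpoints in the PE Six3 del36 library was chr17:85629635-85666796, 37.2 kb, and it was taken as deleted. It began 3.44 kb beyond the annotated end of Six3 and took the last 4.06 kb of the annotated Six2 span, leaving the Six2 promoter in place. The PE Six3 viewpoint is the fragment chr17:85485041-85485766, 26.5 kb beyond the annotated end of Camkmt in a stretch with no annotated protein-coding gene. The Six2 viewpoint is chr17:85689020-85689800, just upstream of the Six2 start. They lie 204 kb apart in mm10 and 167 kb apart once the deleted stretch is taken out, which is called the shortened chromosome below. Distances in del36 are on the shortened chromosome and those in WT on mm10, and 10 kb on each side of both viewpoints was left out unless stated.

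The PE Six3 del36 library held 2238911 reads and the Six2 promoter del36 library 6056180, of which 82.8% and 89.5% lay on chromosome 17. The fragment with most reads, taken as the viewpoint, held 35.2% of the reads of the first and 83.6% of the second. Outside the masks, 332425 reads on 1503 fragments were left in the first and 226360 reads on 850 fragments in the second. The median fragment held 72 reads from PE Six3 and 136 from the Six2 promoter, and the 10 tallest fragments held 7.30% and 12.5% of the reads. The WT libraries kept 1129102 reads on 972 fragments and 145170 reads on 664 fragments. The PE Six3 libraries therefore differed more in depth between genotypes than the Six2 promoter libraries, and of the PE Six3 pair the del36 library had fewer reads on more fragments. The part of this in the differences between WT and del36 was not tested.

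The unit of a 4C profile is the fragment between cut sites, and the promoters of the 2 homeobox genes show how unevenly sites fall. The 250 bases before the annotated starts are printed from RefSeq (GRCm38.p6, 2 of 2 genes matched), 5′ to 3′ on the gene's strand, with the cut sites CATG (NlaIII) and GATC (DpnII) in capitals. Both sites read the same on either strand, and none overlaps another in these sequences.
Six3, chr17:85620584-85620833, plus strand: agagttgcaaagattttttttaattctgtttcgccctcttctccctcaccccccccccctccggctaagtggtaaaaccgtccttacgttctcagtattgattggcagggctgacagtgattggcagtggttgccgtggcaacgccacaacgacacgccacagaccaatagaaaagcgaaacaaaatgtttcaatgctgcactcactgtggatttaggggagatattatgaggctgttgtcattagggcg
Six2, chr17:85688255-85688504, minus strand: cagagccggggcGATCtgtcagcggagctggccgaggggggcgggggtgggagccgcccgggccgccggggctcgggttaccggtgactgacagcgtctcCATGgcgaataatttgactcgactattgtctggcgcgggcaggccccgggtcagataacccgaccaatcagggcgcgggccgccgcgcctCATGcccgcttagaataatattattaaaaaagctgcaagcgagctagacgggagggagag
The Six3 sequence holds no CATG and no GATC, and the Six2 sequence holds 2 CATG and 1 GATC. Among 32851 promoter sequences of this length, 53.9% hold CATG, 41.9% GATC and 23.5% both. Each CATG of the Six2 sequence stood at the edge of a fragment in 3 of the 4 libraries and the GATC at none, so the deposited fragments there run between NlaIII sites. The Six2 sequence has 26 CG pairs, a number that 9.59% of promoters reach, and the Six3 sequence has 10, reached by 37.8%.

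Reciprocal contact was close to equal in del36 when a window of 5 kb on each side of the partner's fragment was used. From PE Six3, 7451 of 341374 reads lay in the window at the Six2 promoter, 2.18% (95% Wilson interval 2.13% to 2.23%). From the Six2 promoter, 5135 of 232058 reads lay in the window at PE Six3, 2.21% (2.15% to 2.27%). The log2 ratio of the second share over the first was 0.02, with an exact conditional interval of -0.03 to 0.07. In WT the same windows held 0.427% from PE Six3 and 1.77% from the Six2 promoter, a log2 ratio of 2.05 (1.98 to 2.12), so that the contact in this window read 4.15 times higher from the Six2 promoter.

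This near equality held at no finer scale. With 2.5 kb on each side the shares in del36 were 1.47% from PE Six3 and 0.881% from the Six2 promoter, a log2 ratio of -0.73. In WT the direction turned at this width, with 0.266% and 0.193%, a log2 ratio of -0.47. On the partner's viewpoint fragment alone, which is the same pair of fragments seen from either end, PE Six3 gave 823 reads, 0.241% (0.225% to 0.258%). The Six2 promoter gave 222 reads on that pair, 0.0957% (0.0839% to 0.109%), so the reading from PE Six3 was 2.52 times higher. In WT the pair had 983 reads from PE Six3, 0.0865%, while the Six2 promoter library had 0 of 149361, which allows a share of up to 0.00201% for 3 reads. With 10 kb on each side the del36 shares were 2.62% and 2.46%. Counting each fragment with reads once, the log2 ratio at 5 kb was 0.54 in del36 and 0.96 in WT.

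The reads behind the 2 readings were spread differently around each target. From PE Six3 they lay on 17 fragments, the tallest of which held 1267 of the reads. It was chr17:85689805-85690021, the neighbour of the Six2 viewpoint fragment on the side away from the gene, and 5789 reads lay on that side of the viewpoint centre against 839 on the side of the gene. From the Six2 promoter they lay on 14 fragments, and the tallest, chr17:85480652-85481136, stood 4.51 kb to the left of PE Six3 with 1412 of the reads. Here the sides were more even, 2892 reads to the left and 2021 to the right. In WT the Six2 promoter reads of this window lay on 12 fragments, and the tallest held 1080 of 2643, 3.365 kb from the PE Six3 centre. The next held 793 and 402, at 4.97 and 5.07 kb, near the edge of the window. From PE Six3 in WT they lay on 9 fragments, the tallest with 1368 of 4853. Against the power law of distance of each library, described below, the window was 3.00 times its expected share from PE Six3 and 2.94 times from the Six2 promoter in del36. In WT these ratios were 0.628 and 2.69.

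**Figure D1:**
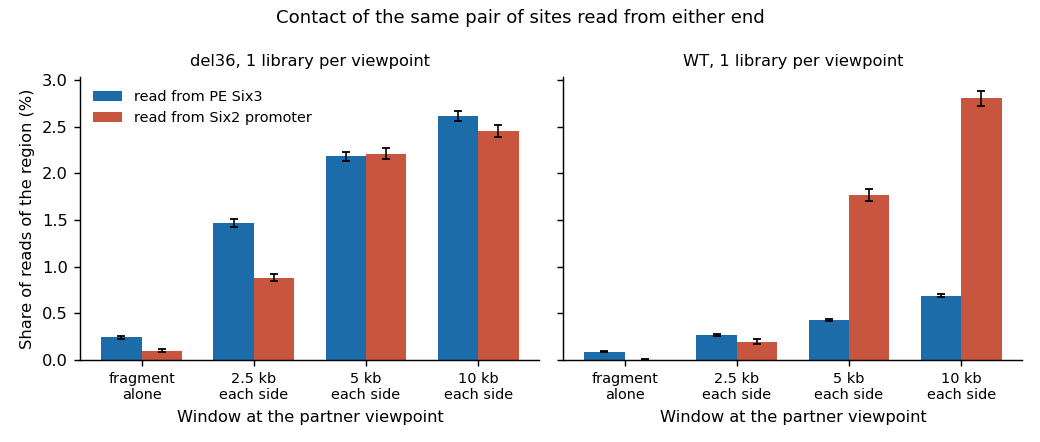
Share of reads of the region (%) in windows at the partner viewpoint, read from PE Six3 (blue) and from the Six2 promoter (red) in del36 and in WT, 1 library per bar; lines are 95% Wilson intervals for counting error. The 2 readings meet near 2.2% at 5 kb on each side in del36 (2.18% and 2.21%), and lie apart at 2.5 kb and on the fragment alone.

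The highest contact from both sides of the deletion lay at Six3. The 10-kb window chr17:85610001-85620000, which overlaps the annotated Six3 span and the antisense transcript Six3os1, was the highest of 167 windows in both libraries. It held 13990 reads on 12 fragments from PE Six3, 4.21% of the reads left, at 130 kb. It held 23680 reads on 12 fragments from the Six2 promoter, 10.5%, at 37.2 kb on the shortened chromosome. Over the power law these were 5.23 times and 5.09 times the expected share. In WT the window held 2.25% from PE Six3 and 6.85% from the Six2 promoter, where it lies further from Six2 by the length of the deleted stretch. The window ends before the Six3 start used below. The next window, which holds that start, touches the deleted stretch and was not among the 167.

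Around the Six3 start itself, within 5 kb, PE Six3 gave 9935 reads, 2.91% (2.85% to 2.97%), and the Six2 promoter gave 22519 reads, 9.70% (9.58% to 9.83%). The promoter of Six2 thus contacted Six3 3.33 times more, by share, than the enhancer named for Six3 did, at 31.4 kb against 135 kb. In WT the shares were 2.62% and 6.91%. These shares are of the reads outside 10 kb of the library's own viewpoint, as for reciprocal contact. The 2 del36 libraries read the same fragments there: 14 from PE Six3 and 15 from the Six2 promoter, 14 of them shared, and in WT 13 and 13, with 11 shared. The tallest fragment was the same in both del36 libraries, chr17:85618382-85619399, 1.94 kb before the start, with 2875 reads from PE Six3 and 4132 from the Six2 promoter. The start is that of the printed sequence, chr17:85620834, while the annotated Six3 span begins at chr17:85613608, so this fragment lies inside the span. The fragment chr17:85620336-85621238, which holds the whole Six3 sequence printed above, carried 109 reads, 1.10% of the window, from PE Six3 and 375 reads, 1.67%, from the Six2 promoter. Most reads at Six3 lay on the fragments around its promoter and few on the promoter fragment itself.

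**Figure D2:**
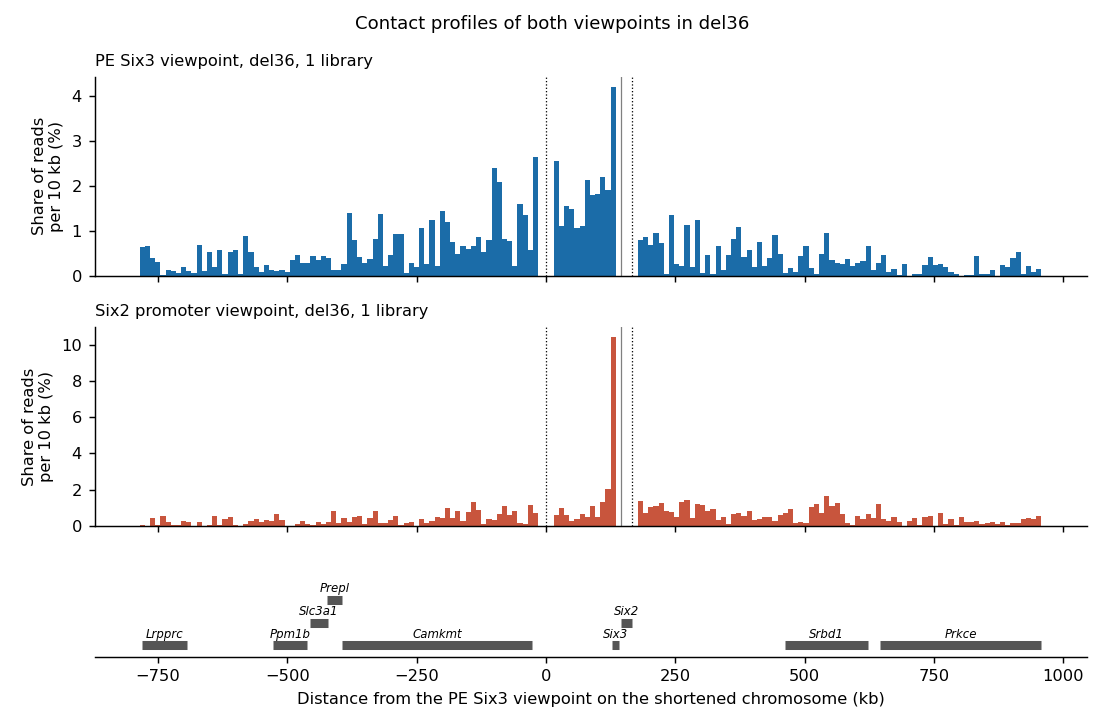
Share of reads (%) per 10-kb window in del36 from PE Six3 (top) and from the Six2 promoter (middle), against distance from the PE Six3 viewpoint on the shortened chromosome (kb), with protein-coding genes below; dotted lines are the viewpoints and the grey line the junction of the deletion. The window at Six3 is the highest of both profiles, 4.21% and 10.5%.

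Between and beyond the viewpoints, each library was denser on its own flank. The stretch from PE Six3 to the deletion, which ends with Six3, held 25.8% of reads from PE Six3 and 26.4% from the Six2 promoter. The intervals of these close shares (25.7% to 26.0% and 26.2% to 26.6%) do not meet. They cover counting error only, and the reads lay on 280 and 132 fragments, so no difference is read from them. The stretch to the left of PE Six3 held 45.3% of reads from PE Six3 and 26.6% from the Six2 promoter. The stretch to the right of the Six2 promoter held 27.0% from PE Six3 and 42.0% from the Six2 promoter. The joining of the neighbouring domains was not measured as such, and the nearest measure is the share on the far side of the partner. In WT that share was lower from both viewpoints: 17.7% of PE Six3 reads lay to the right of the Six2 promoter and 18.2% of Six2 promoter reads to the left of PE Six3. Fragments per 100 kb on the far side differed between the viewpoints. The libraries also differed in all fragments left, 1503 from PE Six3 and 850 from the Six2 promoter. PE Six3 reached 57.7 fragments with reads per 100 kb to the right of the Six2 promoter, where the Six2 promoter itself reached 54.6. The Six2 promoter reached 34.2 per 100 kb to the left of PE Six3, where PE Six3 reached 96.4.

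Contact fell with distance at similar overall rates from the 2 viewpoints. The share per kb was fitted as a power of distance over 7 bins that double in width from 10 kb. The exponent was -0.59 from PE Six3 and -0.70 from the Six2 promoter, a difference of -0.10. Leaving out 1 bin at a time moved the exponent between -0.66 and -0.49 from PE Six3 and between -0.83 and -0.62 from the Six2 promoter, so the 2 ranges overlap. In WT the exponents were -0.64 and -0.71. With Six3 and 5 kb around it left out, the difference in del36 turned to 0.03.

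The similar exponents hid profiles of different shape. From the Six2 promoter the densest bin was 20 to 40 kb, where Six3 lies on the shortened chromosome, with 0.415% per kb against 0.128% from PE Six3, 3.24 times as much. From PE Six3 a rise stood at 80 to 160 kb, again the distance of Six3, with 0.167% per kb against 0.0742% from the Six2 promoter, 2.25 times as much. At 10 to 20 kb the values were 0.318% from PE Six3 and 0.251% from the Six2 promoter. From 160 kb outward the 2 curves, with both sides pooled, lay within 1.10 times of each other in all 3 bins. They were 0.0631% and 0.0575% per kb at 160 to 320 kb, 0.0406% and 0.0423% at 320 to 640 kb, and 0.0193% and 0.0203% beyond.

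Fitted for each side alone, the Six2 promoter had the steeper decay toward its partner and the shallower one away from it. Toward the partner its exponent was -0.85 and that of PE Six3 -0.60. Away from the partner they were -0.39 and -0.54. At 10 to 20 kb the Six2 promoter had 0.357% per kb on the side that faces Six3 and 0.144% on the side that faces Srbd1. At 20 to 40 kb, where Six3 lies, these were 0.744% and 0.0853%. PE Six3 had its highest value on the side away from Six3, 0.421% per kb at 10 to 20 kb, the closest bin. In the bins from 160 kb outward, PE Six3 stood at 1.30, 0.80 and 1.22 times the Six2 promoter away from the partner. Toward the partner it stood at 0.93, 1.20 and 0.80 times the Six2 promoter. In WT the exponents toward the partner were -0.74 from PE Six3 and -0.98 from the Six2 promoter, and those away were -0.52 and -0.49.

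**Figure D3:**
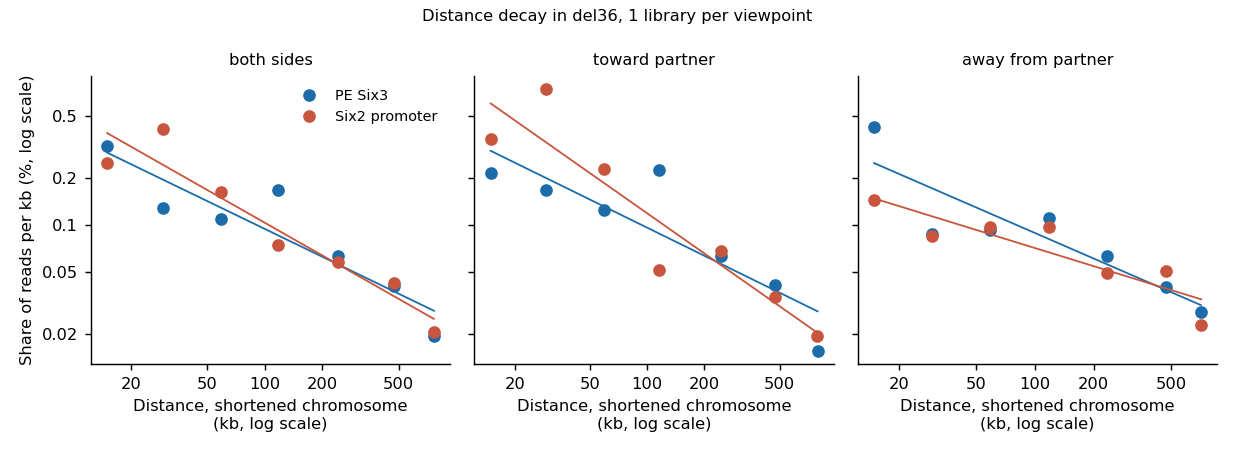
Share of reads per kb (%, log scale) against distance on the shortened chromosome (kb, log scale) in del36 for both sides, the side of the partner and the other side; points are distance bins of 1 library and lines the fitted power laws. With both sides pooled (left), the Six2 promoter stands above PE Six3 at 20 to 40 kb and below it at 80 to 160 kb, and the points lie within 1.10 times from 160 kb outward.

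Both viewpoints in del36 had more reads toward their partner than away from it over equal distances. From PE Six3, 173464 reads lay toward the Six2 promoter and 148336 away, a log2 ratio of 0.23 (0.22 to 0.24). From the Six2 promoter, 125336 reads lay toward PE Six3 and 93902 away, a log2 ratio of 0.42 (0.40 to 0.43). In WT both ratios were below 0, -0.28 and -0.21. The measure compares 754 kb on each side of PE Six3 and 759 kb on each side of the Six2 promoter. Counting each fragment with reads once, the direction in del36 turned, to -0.04 from PE Six3 and -0.06 from the Six2 promoter, and the WT ratios were -0.17 and -0.24.

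The lean toward the partner came from different distances. The Six2 promoter leaned hardest nearby: 41589 reads lay toward PE Six3 and 5137 away at 25 to 50 kb, the step that holds Six3, a log2 ratio of 3.02. At 10 to 25 kb, the stretch that includes the rest of the Six2 gene and the junction, its ratio was 1.62. From 50 kb outward its 4 steps were all on the other side, between -0.09 and -0.31. PE Six3 leaned away at 10 to 25 kb, with -0.44, and hardest toward its partner at 100 to 200 kb, the step that holds Six3, with 1.07 from 51643 and 24649 reads. Beyond 200 kb its ratios were -0.17 and -0.01. In WT the steps that hold Six3 also leaned hardest toward the partner. Their ratios were 1.02 from PE Six3 at 100 to 200 kb and 2.01 from the Six2 promoter at 50 to 100 kb. At 10 to 25 kb PE Six3 leaned away in WT too, with -0.82. Beyond 200 kb it had -0.73 and -0.87 in WT, and the Six2 promoter between -0.82 and -1.03 beyond 100 kb.

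Much of the lean lay at Six3. With Six3 and 5 kb around it left out, and the mirrored distances with it, the ratio over the whole range was 0.06 from PE Six3 and -0.08 from the Six2 promoter. The same exclusion in WT gave -0.37 and -0.70. Within 100 kb the Six2 promoter kept a ratio of 0.63 in del36 without Six3, over 68.6 kb per side. In WT it was 0.58, over 31.4 kb per side. Beyond 400 kb the WT libraries leaned away from the partner by -0.87 and -0.82, and the del36 libraries by -0.01 and -0.31.

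**Figure D4:**
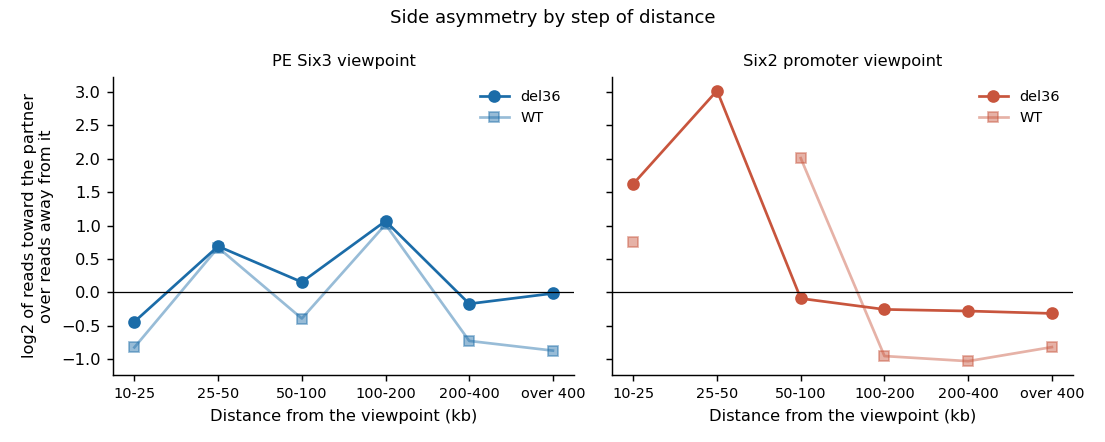
The log2 ratio of reads toward the partner over reads away from it, by step of distance (kb), from PE Six3 (left) and the Six2 promoter (right), in del36 (circles, shortened chromosome) and WT (squares, mm10), 1 library each. The highest del36 points, 1.07 and 3.02, are the steps that hold Six3; WT has no comparable distance at 25 to 50 kb from the Six2 promoter, since that stretch is the deleted one.

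The profiles of the 2 viewpoints resembled each other coarsely and not finely. Over 35 windows of 50 kb the Spearman correlation of the shares was 0.59 in del36 and 0.15 in WT. Over 167 windows of 10 kb it was 0.30 in del36 and 0.12 in WT. These are descriptions over neighbouring windows of 1 library each, and the windows share their cut sites, mappability and distance from the viewpoints. Once each library's power law was divided out, the del36 correlations were 0.08 at 50 kb and 0.00 at 10 kb, and the WT ones -0.08 and 0.04. With fragments counted once, the 50-kb value after that division was 0.44 in del36 and -0.24 in WT.

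For scale, each del36 profile resembled its own viewpoint's WT profile more than it resembled the other del36 profile; libraries of 1 viewpoint also share their distances. At 10 kb the Spearman correlation was 0.52 between the PE Six3 libraries and 0.49 between the Six2 promoter libraries. At 50 kb these were 0.69 and 0.77. After division by the power laws they were 0.28 and 0.23 at 10 kb, and 0.24 and 0.39 at 50 kb. Across viewpoints and genotypes at 50 kb, PE Six3 del36 then correlated at 0.32 with Six2 promoter WT, above its value with PE Six3 WT. Six2 promoter del36 correlated at 0.10 with PE Six3 WT. Within a flank the 2 viewpoints in del36 correlated as follows. To the left of PE Six3, 16 windows of 50 kb correlated at 0.74, and to the right of the Six2 promoter, 16 windows correlated at 0.70. In WT these were 0.63 and 0.54. With the power laws divided out, the del36 values were 0.14 and -0.07. The 12 windows of 10 kb between the viewpoints correlated at 0.45 in del36, against 0.26 and 0.37 in the left and right flanks. In WT these were 0.76, 0.28 and 0.33, so between the viewpoints the WT value was the higher. After division by the power laws, the 12 windows gave 0.28 in del36 and 0.56 in WT.

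Single fragments were mostly read from 1 viewpoint. Of the 1503 fragments from PE Six3 and 850 from the Six2 promoter, 288 were shared, 19.2% of the first and 33.9% of the second. They carried 25.1% of the PE Six3 reads and 43.4% of the Six2 promoter reads. In WT 143 fragments were shared, 14.7% and 21.5%. Of the 2722 fragments read in any of the 4 libraries, PE Six3 read 1503 in del36 and 972 in WT. In both genotypes that is a larger part than its part of the Six2 promoter fragments, 33.9% and 21.5%. Fragments without reads could not be listed, and the fragments PE Six3 read are themselves in that total, which raises its part. The comparison therefore cannot show whether sharing was low or high. The higher number shared in del36 goes with more fragments read from both viewpoints, and gained sharing was not tested. Where both viewpoints read a fragment in del36, their reads correlated at 0.23 (Spearman, 288 fragments).

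Windows were closer to equal in del36 than in WT. Shares were within 2-fold of each other in 21 of 35 windows of 50 kb in del36 and in 7 of 35 in WT. Of 167 windows of 10 kb with at least 100 reads over both del36 libraries, 46 were at least 2-fold higher from the Six2 promoter (27.5%) and 54 at least 2-fold higher from PE Six3 (32.3%). In WT, of 160 such windows, the Six2 promoter was higher in 54 (33.8%) and PE Six3 in 67 (41.9%). The median absolute log2 ratio over windows read from both viewpoints was 1.26 in del36 and 2.30 in WT. To the left of PE Six3, PE Six3 had the higher share in 50 of 77 windows, and to the right of the Six2 promoter, the Six2 promoter had it in 54 of 78. Between them PE Six3 was higher in 10 of 12 windows, in a stretch where Six3 was the exception together with the window before it.

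The windows that stood high from both viewpoints, ranked by the lower of their 2 observed over expected ratios, were led by Six3 and lay on both flanks. The second was chr17:86060001-86070000 in Srbd1, with 0.948% of reads from PE Six3 and 1.62% from the Six2 promoter, 2.75 times and 3.96 times expected. It lay 542 kb from PE Six3, and the WT library from there had 3 reads in it, while the WT library of the Six2 promoter had 2000. The third was chr17:85290001-85300000 in Camkmt, with 1.20% and 0.962%, 1.88 times and 2.27 times expected. The fourth, chr17:86140001-86150000 at the end of Srbd1, had nearly the same share from both, 0.660% and 0.664%. The fifth, chr17:85150001-85160000 in Camkmt, had 0.807% and 0.785%. Of 167 windows, 21 reached at least 2 times the expected share from PE Six3 and 18 from the Six2 promoter, and 2 did so from both. In WT 23 and 27 did, and 4 did so from both. In both genotypes the overlap is about what unrelated sets of these sizes would share, so the list is a ranking and not a finding of shared contacts.

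Away from Six3, the highest windows of the 2 libraries differed. Of the 5 highest in each, 1 was shared, of the 10 highest 3, and of the 20 highest 5. From PE Six3 they were chr17:85460001-85470000 and chr17:85500001-85510000, the nearest windows on either side, with 2.64% and 2.56%. The fourth was chr17:85380001-85390000 in Camkmt with 2.40%, against 0.336% from the Six2 promoter, and the fifth chr17:85590001-85600000, before Six3os1, with 2.18% against 1.33%. From the Six2 promoter the second was chr17:85600001-85610000 in Six3os1, with 2.01% against 1.90% from PE Six3. The third was the Srbd1 window above, the fourth chr17:85790001-85800000 with 1.40% against 1.13%, and the fifth chr17:85700001-85710000 with 1.38% against 0.790%.

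Six3, Six2 and the genes beyond Six2 had higher shares from the Six2 promoter, and the 5 genes compared beyond PE Six3 were mixed. Values are shares per 100 kb of gene span outside the masks, and ratios are of the gene's share from the Six2 promoter over that from PE Six3. Six3 had 25.7% per 100 kb from PE Six3 and 85.6% from the Six2 promoter, a log2 ratio of 1.74 (1.70 to 1.77), and 1.31 in WT. With fragments counted once the del36 ratio was 0.91. The 12.2 kb of Six2 left outside the deletion and the mask had 14.8% and 40.6% per 100 kb, a log2 ratio of 1.46, and 1.44 in WT. This stretch lies next to the Six2 viewpoint, and it held 2.01 times the share expected by the power law from PE Six3 and 1.09 times that expected from the Six2 promoter.

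Beyond Six2 lie Srbd1, which encodes a protein with an S1 RNA-binding domain, and Prkce, which encodes protein kinase C epsilon. Srbd1 held 17518 reads from PE Six3, 5.27%, and 23371 from the Six2 promoter, 10.3%, a log2 ratio of 0.97 (0.94 to 1.00). Prkce, measured over 312 kb of its 490 kb, held 4.87% and 8.19%, a log2 ratio of 0.75 (0.72 to 0.78). In WT the log2 ratios were 1.68 and 1.17. Both were higher from the Six2 promoter in both genotypes, and both stood nearer to 0 in del36.

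Beyond PE Six3 lie 6 protein-coding genes of the region. Camkmt, which encodes the methyltransferase of calmodulin, is the nearest and spans 368 kb. It held 97069 reads from PE Six3, 29.2%, and 38101 from the Six2 promoter, 16.8%, a log2 ratio of -0.79 (-0.81 to -0.78). Slc3a1, a subunit of the kidney's transporter of cystine and dibasic amino acids, had 1.40% and 0.644%, a log2 ratio of -1.12. Lrpprc, a mitochondrial RNA-binding protein, had 2.00% and 1.67%, a log2 ratio of -0.26, and -1.09 with fragments counted once. Ppm1b, a protein phosphatase, had 1.54% and 1.52%, a log2 ratio of -0.03 (-0.09 to 0.04), an interval that includes 0, and -0.37 with fragments counted once.

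Prepl, a serine hydrolase next to Camkmt, went the other way, with 1564 reads from PE Six3 and 2271 from the Six2 promoter, 0.470% and 1.00%, a log2 ratio of 1.09. These lay on 19 and 8 fragments, and with fragments counted once the log2 ratio was -0.43. In WT all 5 of these genes were lower from the Six2 promoter, with log2 ratios of -1.31 for Camkmt, -1.56 for Prepl, -3.24 for Slc3a1, -1.05 for Ppm1b and -2.91 for Lrpprc. The WT library of the Six2 promoter had between 318 and 1553 reads in each of the last 4. Abcg8, a sterol transporter, reaches into the region by 0.334 kb and had 0 reads from PE Six3 and 3 from the Six2 promoter, too few to compare.

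**Figure D5:**
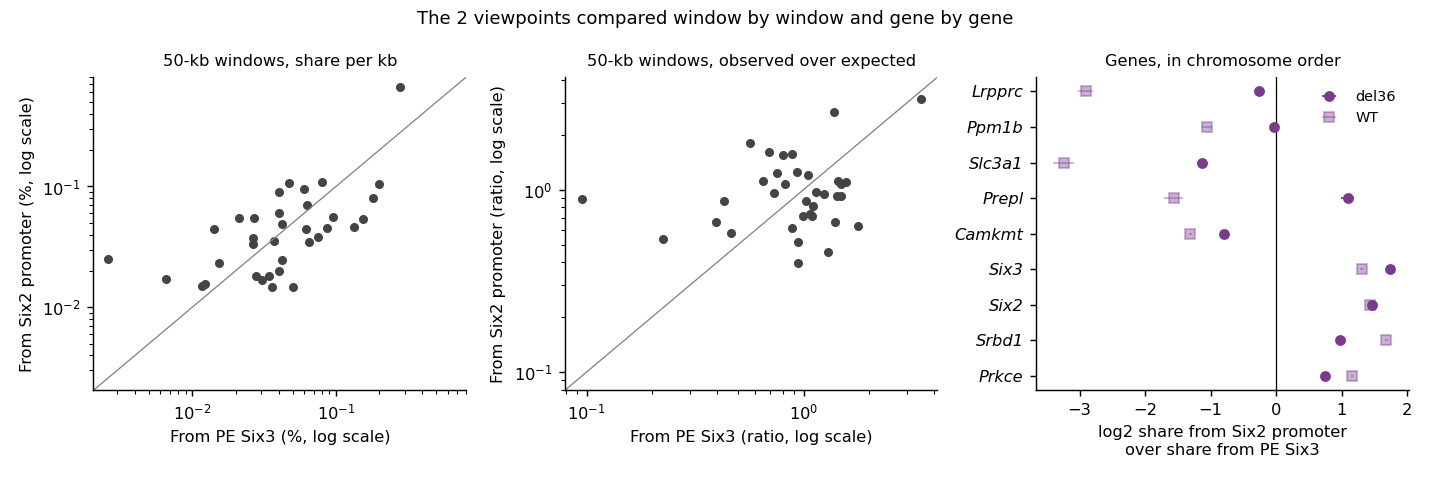
Left and middle, 35 windows of 50 kb in del36, as share of reads per kb (%) and as observed over expected, from the Six2 promoter against PE Six3 on log scales, with the line of equal values; right, the log2 ratio of each gene's share from the Six2 promoter over PE Six3 in del36 (circles) and WT (squares) with 95% intervals for counting error. The shares correlate at 0.59 and the ratios to expected at 0.08, and Six3 has the highest gene ratio in del36, 1.74.

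The 5 largest ratios in each direction lay at windows of Prkce, Srbd1, Lrpprc, Ppm1b and Camkmt. Higher from the Six2 promoter were 3 windows in Prkce without a read from PE Six3, led by chr17:86320001-86330000 with 1053 reads on 4 fragments. Set against the limit of 3 reads per library, that share was at least 515-fold higher. The other two were chr17:86220001-86230000 with 571 reads and chr17:86390001-86400000 with 165 reads on 1 fragment. They were followed by chr17:86040001-86050000 in Srbd1, with 2719 reads on 11 fragments against 83 on 4, and chr17:84740001-84750000 in Lrpprc, with 1203 reads on 3 fragments against 48 on 2. Higher from PE Six3 were chr17:84710001-84720000 in Lrpprc, with 2177 reads on 7 fragments, and chr17:84990001-85000000 in Ppm1b, with 1158 on 5, both without a read from the Six2 promoter. These were at least 494-fold and at least 263-fold higher. The rest were chr17:86210001-86220000 in Prkce, with 828 reads against 1, chr17:86270001-86280000 in Prkce, with 764 against 0, and chr17:85230001-85240000 in Camkmt, with 665 against 0. Prkce and Lrpprc thus each held windows that were extreme in opposite directions, at distances of 526 kb or more from the nearer viewpoint in Prkce and 740 kb or more in Lrpprc.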

How the data were processed

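Each library was deposited by the authors as 1 RPM value per restriction fragment, that is reads scaled to the library's depth. Per the submitters' processing notes, HISAT2 (version not given in the sources used here) and mm10 were used. Of these RPM values 100% were whole multiples of the lowest within a tolerance of 0.1, so reads were recovered by division. A count test was not run, since each condition has 1 library. Samples were grouped by title. Shares are of reads in the region outside 10 kb of the library's own viewpoint (reciprocal contact and the Six3 start) or of both viewpoints (other measures). The deleted stretch was left out in all libraries. Intervals are at 95%. Expected shares come from each library's fitted power law. Windows of 50 kb needed at least 50% of their length left. Genes were those of a RefSeq table of GRCm38.p6, the assembly of mm10, and all protein-coding genes of the region were named. Named windows were the 5 highest per library, the 5 highest in both over expected, and the 5 with the largest ratio each way. Members, lists and alternatives were chosen with earlier results of these data known. The code for exponents and sides was checked on simulated smooth power laws with counting noise only, without the tall fragments of the data. The errors it allowed were wider than the difference of exponents and the asymmetry from PE Six3 reported in del36. The check therefore cannot bear on values of that size. Python 3.11.15, NumPy 2.4.6, pandas 2.3.3 and SciPy 1.17.1 were used.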

Additional observations from a re-analysis of the deposited data

Results flagged for a closer look

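The Six2 promoter del36 library held 796 reads on 7 fragments inside the stretch taken as deleted, where the PE Six3 del36 library had 0. Of these, 661 lay on chr17:85629639-85629693 and 125 on chr17:85666700-85666737, the outermost fragments at either end, and 10 on the 5 fragments between. The stretch was chosen as empty in the other library, and these reads were left out of the measures. They are 5.90% of the Six2 promoter WT reads there, and enter the alternative that subtracts the WT library at that rate. The fragment with 661 reads had 1 read in that WT library. Inside the outermost fragments of each library, del36 held 10 reads and WT 12717, so the rate rests on the outermost fragments.

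By reads, side asymmetry over the whole range was of opposite sign in the genotypes from both viewpoints. From PE Six3 the log2 ratio of reads toward over away was 0.23 in del36 and -0.28 in WT, and from the Six2 promoter 0.42 in del36 and -0.21 in WT. With fragments counted once the signs were no longer opposite, at -0.036 and -0.17 from PE Six3 and -0.061 and -0.24 from the Six2 promoter. Without Six3 they were not opposite from the Six2 promoter, at -0.08 and -0.70. The difference was not tested, since each rests on 1 library, and the ranges of distance compared differ between genotypes (754 kb and 717 kb per side from PE Six3).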

How the results depend on the processing

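Of 62 recomputed values of the 8 measures, 42 moved by no more than the counting interval or, for exponents and correlations, by no more than 0.1. The cause was not tested for the others, beside what each setting removes. The limit of 0.1 is about as large as the difference of exponents and larger than both similarities after removal of decay. That difference counted as unmoved at -0.040 on mm10 distances, -0.046 with fragments counted once and -0.185 with 25 kb left out. The reciprocal log2 ratio (0.02) was 0.54 with fragments counted once, -0.094 with 10 kb on each side and -1.97 on the deposited RPM, which keeps the share taken by each viewpoint. It was -0.73 with 2.5 kb and -1.33 on the fragment alone, both chosen after seeing the data. Side asymmetry from PE Six3 (0.23) was -0.036 with fragments counted once, 0.29 with 25 kb left out, 0.21 with tall fragments capped at the 99th percentile, 0.32 on mm10 distances and 0.058 without Six3. That from the Six2 promoter (0.42) was -0.061, 0.32, 0.28, 0.56 and -0.082 under the same settings. Without Six3, an alternative also chosen after seeing the data, the difference of exponents (-0.10) was 0.035. With fragments counted once, the 10-kb similarity was 0.43, and after removal of decay 0.17 at 10 kb and 0.44 at 50 kb; the last was 0.24 by Pearson correlation of log2 values. Subtracting the WT library at the 5.90% rate of the deleted stretch moved none of the 8 measures beyond these limits. This does not show stability, since the rate was 0 for PE Six3 and its side asymmetry could not move. For the Six2 promoter the rate rests on the outermost fragments of the stretch, where 661 reads lay on 1 fragment with 1 WT read. Gene ratios were recomputed in 3 settings chosen after seeing the data; with fragments counted once Prepl turned to -0.43, Lrpprc was -1.09, Six3 0.91 and Ppm1b -0.37, and Ppm1b changed sign to 0.018 with the cap. No paired analysis was possible because each group has 1 library. Depth limits single windows: 3 reads are 0.000902% of the PE Six3 reads left and 0.00133% of the Six2 promoter reads.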
